A study of Homo sapiens with 6 samples.

Results

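The promoters described here belong to genes with ZNF symbols, the large group of human genes named for zinc finger proteins. Members were all distinct names made of ZNF, digits and at most 1 capital letter in the deposited lists of genes with an H3K4me3 peak or in the deposited promoter tables. There were 451 such names among 16500 in all. By the RefSeq annotation of GRCh38.p14, 441 were protein-coding genes and 10 were transcribed pseudogenes. The choice went by the form of the name, but it was not free of the measurement. Only 127 of the 451 names have a promoter row, and the rest entered through the peak lists.

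The study profiled H3K4me3 (histone H3 trimethylated at lysine 4) by chromatin immunoprecipitation and sequencing. It used BE(2)-C, a MYCN-amplified line grown from a human neuroblastoma. Cells of this 1 line received either a control siRNA or WDR5 siRNA-1, which targets the H3K4 methyltransferase subunit WDR5, for 24 hours before analysis. Each siRNA had 1 H3K4me3 library, 1 IgG library and 1 input library, 6 libraries in all, so no value below has replicate error. For each H3K4me3 library the authors listed the genes with a peak within 1 kb of a transcription start site, and 2 further tables give the start sites of promoters that the authors classed by N-Myc binding.

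Most ZNF genes encode proteins with tandem C2H2 zinc fingers, each of which can contact a few bases of DNA. Many also carry a KRAB domain, which recruits the co-repressor KAP1 (TRIM28) and, through it, the H3K9 methyltransferase SETDB1, and so silences transposable elements. Human KRAB zinc finger genes arose largely by tandem duplication and lie in clusters, above all on chromosome 19. H3K4me3 marks the promoters of active or poised genes, and N-Myc, the product of MYCN, binds E-boxes such as CACGTG and interacts with WDR5.

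Promoter sequences from RefSeq (GRCh38.p14, 250 bases before to 50 after the start, written 5′ to 3′ on the gene's strand) were found for 380 of the 451 names. For the 74 of these with more than 1 start in the table, the first was used. It need not be the start nearest to the authors' peak. The sequences below are those on which the results turn: related promoters whose calls differed, promoters with words shared across the family, and N-Myc-binding promoters.

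The ZNF585A and ZNF585B promoters are shown because these related genes on chromosome 19 were the only related pair with opposite calls, ZNF585A listed only with WDR5 siRNA and ZNF585B only with control siRNA. They lie at chr19:37172646-37172945 and chr19:37210487-37210786, both on the minus strand. Over 280 aligned bases, 230 were identical (82.1%). Capitals in ZNF585B mark bases within the alignment that differ from ZNF585A or have no partner there.
ZNF585A: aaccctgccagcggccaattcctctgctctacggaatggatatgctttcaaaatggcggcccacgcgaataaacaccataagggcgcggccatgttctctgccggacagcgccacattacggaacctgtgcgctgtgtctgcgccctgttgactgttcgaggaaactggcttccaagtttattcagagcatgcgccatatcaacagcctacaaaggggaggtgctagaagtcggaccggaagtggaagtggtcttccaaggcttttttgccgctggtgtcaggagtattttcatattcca
ZNF585B: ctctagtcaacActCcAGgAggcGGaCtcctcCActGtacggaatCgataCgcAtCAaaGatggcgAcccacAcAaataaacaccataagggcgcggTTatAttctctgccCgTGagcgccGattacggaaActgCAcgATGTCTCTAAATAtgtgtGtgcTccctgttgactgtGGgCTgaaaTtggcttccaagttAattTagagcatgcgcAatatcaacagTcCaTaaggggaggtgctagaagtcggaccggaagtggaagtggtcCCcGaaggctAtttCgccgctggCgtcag

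ZNF33A, listed in both libraries, and ZNF33B, listed only with control siRNA, form a related pair on chromosome 10 with different but not opposite calls. Their promoters lie at chr10:38010425-38010724 on the plus strand and chr10:42638521-42638820 on the minus strand, and 251 of 279 aligned bases were identical (90.0%). Capitals in ZNF33B mark the differences from ZNF33A in the same way.
ZNF33A: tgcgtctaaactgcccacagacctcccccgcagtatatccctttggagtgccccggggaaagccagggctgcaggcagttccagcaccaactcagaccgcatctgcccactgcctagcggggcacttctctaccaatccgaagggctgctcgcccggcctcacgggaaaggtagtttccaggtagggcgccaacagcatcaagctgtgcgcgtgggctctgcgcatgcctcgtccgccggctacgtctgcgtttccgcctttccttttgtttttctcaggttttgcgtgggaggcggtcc
ZNF33B: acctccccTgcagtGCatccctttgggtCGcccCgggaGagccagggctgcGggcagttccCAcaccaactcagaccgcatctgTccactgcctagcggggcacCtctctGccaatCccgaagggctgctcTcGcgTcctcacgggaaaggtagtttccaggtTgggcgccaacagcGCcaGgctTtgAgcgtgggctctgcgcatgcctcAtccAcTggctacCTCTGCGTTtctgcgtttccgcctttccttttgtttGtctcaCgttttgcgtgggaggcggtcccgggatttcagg

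Promoters of ZNF611, ZNF808 and ZNF83 come from a chromosome 19 family with mixed calls. ZNF611, at chr19:52734995-52735294 on the minus strand, was listed in both libraries. ZNF808, at chr19:52527418-52527717 on the plus strand, and ZNF83, at chr19:52690447-52690746 on the minus strand, were listed only with control siRNA. ZNF808 matched ZNF611 at 261 of 285 aligned bases (91.6%) and ZNF83 matched it at 235 of 275 (85.5%). Capitals in ZNF808 and ZNF83 mark the differences from ZNF611.
ZNF611: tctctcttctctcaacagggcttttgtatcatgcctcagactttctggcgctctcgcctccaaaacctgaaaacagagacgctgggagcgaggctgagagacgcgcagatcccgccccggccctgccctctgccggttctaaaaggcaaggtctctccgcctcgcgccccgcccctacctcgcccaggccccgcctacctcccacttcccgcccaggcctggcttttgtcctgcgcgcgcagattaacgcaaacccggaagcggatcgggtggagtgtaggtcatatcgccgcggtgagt
ZNF808: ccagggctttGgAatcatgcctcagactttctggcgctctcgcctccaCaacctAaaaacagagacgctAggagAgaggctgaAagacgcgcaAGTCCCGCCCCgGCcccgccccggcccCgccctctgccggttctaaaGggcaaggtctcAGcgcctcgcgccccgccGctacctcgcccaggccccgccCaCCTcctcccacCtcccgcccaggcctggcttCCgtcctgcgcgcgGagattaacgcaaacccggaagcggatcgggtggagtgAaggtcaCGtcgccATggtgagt
ZNF83: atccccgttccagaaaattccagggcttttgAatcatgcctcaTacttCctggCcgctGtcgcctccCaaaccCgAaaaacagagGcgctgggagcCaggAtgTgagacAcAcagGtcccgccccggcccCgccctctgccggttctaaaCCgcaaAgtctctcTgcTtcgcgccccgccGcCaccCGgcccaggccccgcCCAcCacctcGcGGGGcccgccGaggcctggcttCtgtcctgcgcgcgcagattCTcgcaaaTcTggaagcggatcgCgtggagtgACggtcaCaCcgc

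ZNF91 and ZNF93, whose proteins repress SVA and L1 retrotransposons, are shown for a pair of words that recur in ZNF promoters. ZNF91 lies at chr19:23395422-23395721 on the minus strand and ZNF93 at chr19:19900696-19900995 on the plus strand, and both were listed in both libraries. Capitals mark TCCAATCAGG, which holds the letters of a CCAAT box, and TGTCACTCAG, the reverse complement of CTGAGTGACA.
ZNF91: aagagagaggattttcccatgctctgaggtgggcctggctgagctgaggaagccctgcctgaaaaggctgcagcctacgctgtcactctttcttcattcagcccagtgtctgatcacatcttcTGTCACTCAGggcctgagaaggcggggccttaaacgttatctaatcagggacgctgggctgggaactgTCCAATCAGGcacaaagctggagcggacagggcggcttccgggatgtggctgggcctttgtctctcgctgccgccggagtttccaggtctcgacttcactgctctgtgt
ZNF93: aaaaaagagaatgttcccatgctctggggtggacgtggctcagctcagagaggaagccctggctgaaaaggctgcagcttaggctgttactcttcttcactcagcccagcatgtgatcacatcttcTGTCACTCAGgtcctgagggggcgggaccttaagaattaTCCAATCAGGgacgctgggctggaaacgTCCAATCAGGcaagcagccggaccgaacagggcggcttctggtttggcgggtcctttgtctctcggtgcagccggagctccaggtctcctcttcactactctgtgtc

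The last set holds N-Myc-binding promoters and the second name listed only with WDR5 siRNA. ZNF202 (chr11:123741611-123741910, minus strand), which encodes a repressor of lipid metabolism genes, carries 1 CACGTG, given in capitals, and was listed in both libraries. ZNF341 (chr20:33731746-33732045, plus strand), whose protein activates STAT3 transcription, holds no CACGTG and was the 1 N-Myc-binding ZNF promoter listed only with control siRNA. ZNF75D (chrX:135295990-135296289, minus strand) was listed only with WDR5 siRNA, and capitals mark its 2 matches to CCGGAA, the core of an ETS site, on either strand.
ZNF202: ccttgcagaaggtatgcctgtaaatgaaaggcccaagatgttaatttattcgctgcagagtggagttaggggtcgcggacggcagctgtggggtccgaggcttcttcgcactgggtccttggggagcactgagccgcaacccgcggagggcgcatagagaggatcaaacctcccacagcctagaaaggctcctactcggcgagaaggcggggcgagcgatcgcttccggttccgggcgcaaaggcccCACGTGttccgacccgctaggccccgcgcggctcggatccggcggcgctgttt
ZNF341: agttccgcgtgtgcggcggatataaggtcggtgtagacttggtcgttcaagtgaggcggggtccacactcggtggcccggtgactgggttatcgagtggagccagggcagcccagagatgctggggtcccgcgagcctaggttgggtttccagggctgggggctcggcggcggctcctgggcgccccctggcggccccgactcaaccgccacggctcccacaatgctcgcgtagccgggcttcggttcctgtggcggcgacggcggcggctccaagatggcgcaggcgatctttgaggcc
ZNF75D: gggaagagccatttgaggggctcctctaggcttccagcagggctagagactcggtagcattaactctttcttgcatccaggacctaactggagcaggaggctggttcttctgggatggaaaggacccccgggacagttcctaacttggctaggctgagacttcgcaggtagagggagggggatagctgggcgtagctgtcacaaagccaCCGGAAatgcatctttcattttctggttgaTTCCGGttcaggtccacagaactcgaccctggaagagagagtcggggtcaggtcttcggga

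The first comparison asked how many ZNF genes carried an H3K4me3 peak call with each siRNA. Nearly all members were called in both libraries. The control list held 441 of the 451 names and the WDR5 siRNA list held 414, with 412 (91.4%) in both. Of all 16500 names, 71.4% were in both. These shares are not like for like, because a name without a promoter row had to be in a peak list to enter. A promoter row was held by 127 of the ZNF names and by 9585 of all names. Only 29 ZNF names were listed with control siRNA alone, 2 with WDR5 siRNA alone and 8 in neither. WDR5 itself was listed in both libraries, which says nothing on its knockdown.

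Of the ZNF names with a control call, 29 of 441 (6.58%, exact 95% interval over genes 4.45 to 9.31%) were missing with WDR5 siRNA, against 13.5% of all names. Among names other than ZNF the share was 13.8% (1816 of 13177), a difference of -7.21 percentage points (Newcombe interval -9.25 to -4.44). In the other direction, 2 of 414 ZNF names with a WDR5 siRNA call (0.483%, interval 0.0586 to 1.73%) were missing from the control list, against 0.817% of all names. These intervals treat genes as independent and cover neither library nor replicate error. How depth and yield differed between the libraries is unknown, and a call in both does not show equal levels.

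Because most members entered through the peak lists, their high listing rate is in part the rule itself. Against a denominator that does not use the lists, 431 of 509 protein-coding ZNF symbols of RefSeq (84.7%, interval 81.2 to 87.7%) were listed with control siRNA and 404 (79.4%) with WDR5 siRNA. Other protein-coding symbols were listed at 59.9% (11706 of 19547) and 52.6%. The 68 protein-coding ZNF symbols found in no file are no members. One of them is ZNF423, whose protein acts in the retinoic acid response of neuroblastoma.

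Of the 29 names listed only with control siRNA, 19 were on chromosome 19, which holds 216 of the 441 control-listed ZNF names. These were ZNF155, ZNF175, ZNF229, ZNF233, ZNF284, ZNF347, ZNF560, ZNF567, ZNF578, ZNF585B, ZNF628, ZNF701, ZNF784, ZNF793, ZNF808, ZNF813, ZNF816, ZNF826P and ZNF83. ZNF808 is required for pancreas development, and ZNF826P is a transcribed pseudogene. The 10 on other chromosomes were ZNF33B, ZNF81, ZNF214, ZNF334, ZNF341, ZNF454, ZNF620, ZNF684, ZNF804B and ZNF853. The 2 listed only with WDR5 siRNA were ZNF585A and ZNF75D.

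Of 20 well-known ZNF genes, 17 were listed in both libraries (85.0%, interval 62.1 to 96.8%). The share was 91.4% of ZNF names and 71.4% of all names in the files. The 20 include ZNF423, which is in no file, so these shares have unlike denominators. ZNF217, ZNF423 and ZNF536 were in neither list. Those in both were ZNF143, an activator bound at many promoters and loop anchors, ZNF148, ZNF202, ZNF263, ZNF281, a regulator of stem cells, ZNF384 and ZNF711, a gene of X-linked intellectual disability. The same held for ZNF274, which recruits SETDB1 to zinc finger genes, ZNF644, a partner of the H3K9 methyltransferases EHMT1 and EHMT2, and ZNF335, which is part of an H3K4 methyltransferase complex. ZNF10, the source of the KRAB domain used in synthetic repressors, ZNF24, ZNF521, ZNF91, ZNF93 and the imprinted genes ZNF331 and ZNF597 were also in both lists.

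The promoter tables allow a comparison in which membership did not require a listed peak, since they also hold promoters in neither list. How the authors chose promoters for these tables is unknown, so the choice may still be related to the calls. They held 127 ZNF promoters, of which the authors classed 53 as binding N-Myc and 74 as not binding it, or 41.7% binding (interval 33.0 to 50.8%) against 33.9% of all 9585 promoters. The difference from the promoters of other genes was 7.89 points (interval -0.378 to 16.6). A promoter row was less frequent for ZNF names, with 118 of the 441 control-listed names (26.8%) in a table against 50.4% of other control-listed names.

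N-Myc-non-binding ZNF promoters were called about as often as binding ones. With control siRNA a call was listed for 49 of 53 binding ZNF promoters (92.5%, interval 81.8 to 97.9%), against 94.9% of all N-Myc-binding promoters. For non-binding ZNF promoters it was 69 of 74 (93.2%, interval 84.9 to 97.8%), against 58.0% of all non-binding promoters. The gap between the classes was thus -0.790 points within ZNF (binding minus non-binding, interval -11.8 to 8.52). Non-binding ZNF promoters were 35.6 points above the non-binding promoters of other genes (interval 27.4 to 39.6).

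With WDR5 siRNA, 49 binding (92.5%) and 66 non-binding ZNF promoters (89.2%) were listed, against 91.0% and 47.7% of other promoters. Of the control-listed ones, 1 of 49 binding ZNF promoters was control-only (2.04%, interval 0.0517 to 10.9%), against 4.18% of all binding promoters. Among non-binding ZNF promoters 3 of 69 were (4.35%, interval 0.906 to 12.2%), against 17.9% of all non-binding promoters, and the difference from other non-binding promoters was -13.8 points (interval -16.9 to -5.99). Control-listed ZNF names in neither table were control-only in 25 of 323 cases (7.74%, interval 5.07 to 11.2%), against 15.5% of all such names. Within ZNF the non-binding and binding classes differed by 2.31 points with an interval of -6.81 to 10.2, so no difference was detectable with so few control-only promoters.

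**Figure D1:**
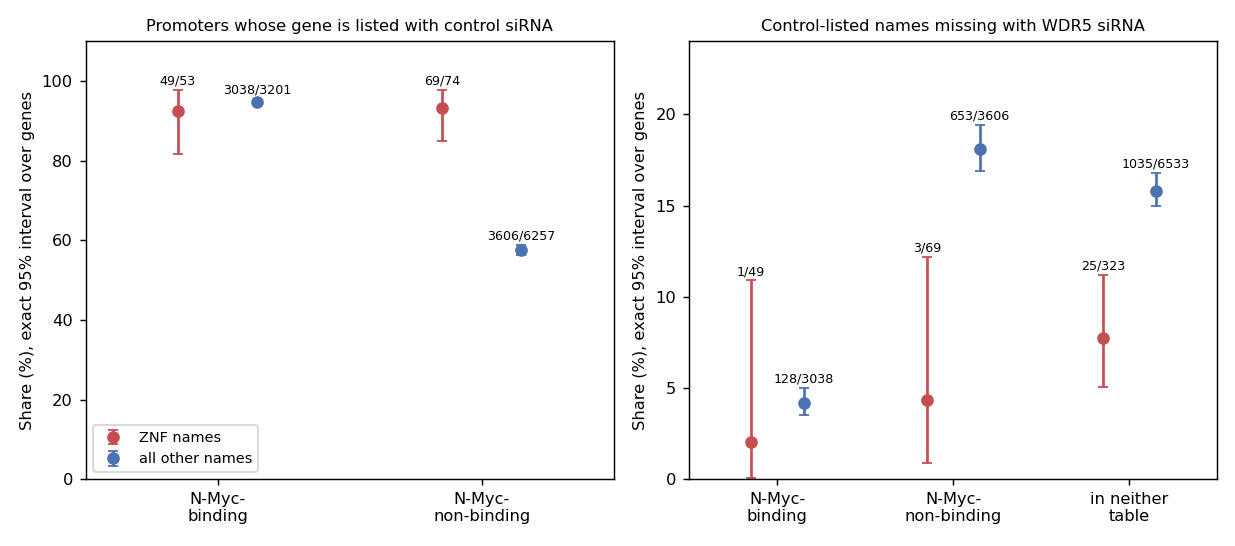
Share of promoters whose gene was listed with control siRNA (left, %) and share of control-listed names missing with WDR5 siRNA (right, %), for ZNF names (red) and all other names (blue) by N-Myc class, with exact 95% intervals over genes and counts above each point. In the non-binding class ZNF promoters stood at 93.2% and other promoters at 57.6% on the left, and at 4.35% and 18.1% on the right.

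The 4 control-only promoters in the tables had these hg19 start sites. ZNF341, N-Myc-binding, starts at chromosome 20, position 32319808. The non-binding ones are ZNF334 at chromosome 20, position 45142198, ZNF454 at chromosome 5, position 178368194, and ZNF560 at chromosome 19, position 9609279. The N-Myc-binding start of ZNF585A is at chromosome 19, position 37663615, and ZNF75D has no promoter row.

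The 8 members in neither list entered through the promoter tables alone. The N-Myc-binding ones were ZNF106, ZNF668 and ZNF750, a regulator of epidermal differentiation. The non-binding ones were ZNF217, an oncogene often amplified in breast cancer, ZNF366, a dendritic cell factor, ZNF474, ZNF536, a regulator of neuronal differentiation, and ZNF665. In neither list were 3 of 53 binding ZNF promoters (5.66%) and 5 of 74 non-binding ones (6.76%), against 5.0% of other binding and 41.8% of other non-binding promoters.

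The row of a promoter in its table is in an order that the headers do not explain, and calls varied along it for ZNF and other promoters alike. In the binding table the 48 ZNF promoters listed in both libraries had their median row at 55.3% of the table length, against 45.6% for all promoters with that call. In the non-binding table the median of 66 was 23.8%, against 23.9%. ZNF341 stood at 82.9%, ZNF585A at 99.5%, and ZNF106, ZNF668 and ZNF750 between 94.6 and 97.2%. The 3 control-only non-binding ZNF promoters stood at 42.6, 44.0 and 53.5%, and the 5 unlisted ones between 57.0 and 98.7%. Over all promoters the medians were 90.3% (binding) and 51.5% (non-binding) for control-only and 97.0% and 78.4% for unlisted ones.

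The earliest ZNF rows were those of ZNF367, ZNF277, ZNF496, ZNF655 and ZNF213 in the binding table (rows 47 to 125) and of ZNF263, ZNF622, ZNF664, ZNF276 and ZNF282 in the non-binding one (rows 20 to 164), all listed in both libraries. ZNF622 encodes a factor of large ribosomal subunit maturation. The last 5 ZNF rows of the binding table, from row 2991 to row 3237 of 3254, were ZNF219, listed in both, then ZNF668, ZNF750, ZNF106 and ZNF585A. Those of the non-binding table, from row 5146 to row 6249 of 6331, were ZNF366, ZNF22, ZNF217, ZNF536 and ZNF474, of which only ZNF22 was listed, in both libraries and at 93.1% of the table length.

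**Figure D2:**
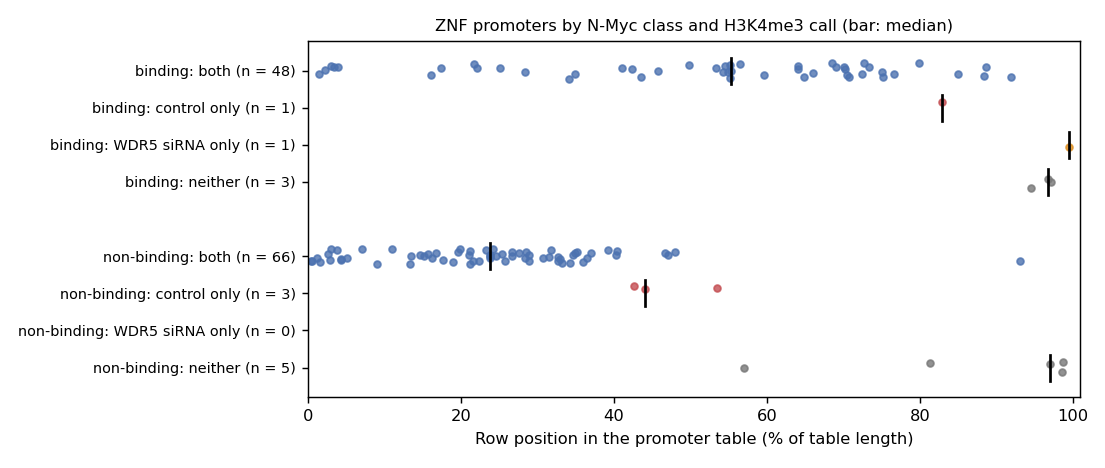
Row position (% of table length, horizontal axis) of ZNF promoters by N-Myc class (53 binding, 74 non-binding) and H3K4me3 call, 1 point per promoter with bars at the medians. Promoters listed in both libraries had medians of 55.3% and 23.8%, and the unlisted ones lay late in both tables, from 57.0 to 98.7%.

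Chromosome 19 was compared with the other chromosomes where a table gives a position. It held 34 of the 127 ZNF promoters. Of these 14 were N-Myc-binding (41.2%, interval 24.6 to 59.3%), against 39 of 93 on other chromosomes (41.9%, interval 31.8 to 52.6%), a difference of -0.759 points with a wide interval of -18.7 to 18.4. Among promoters of other genes, binding was at 49.3% on chromosome 19 (199 of 404) and 33.2% elsewhere, a difference of 16.1 points (interval 11.2 to 21.1). Among the binding ones on chromosome 19 were ZNF146, ZNF565, ZNF274, ZNF296, ZNF324 and ZNF473.

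Control calls were listed for 31 of 34 chromosome 19 ZNF promoters (91.2%) and 87 of 93 others (93.5%), against 73.0% and 70.1% of the promoters of other genes. Of these, 1 of 31 (3.23%, interval 0.0816 to 16.7%) and 3 of 87 (3.45%, interval 0.717 to 9.75%) were control-only, a difference of -0.222 points (interval -6.97 to 12.9), against 11.2% and 11.8% among other genes. The tables place only 127 of the 451 names. When the chromosome was taken from RefSeq for all names, the difference had the other sign: 19 of 216 control-listed ZNF names on chromosome 19 (8.80%, interval 5.38 to 13.4%) against 10 of 225 elsewhere (4.44%, interval 2.15 to 8.02%), 4.35 points with an interval of -0.350 to 9.31. Other names on chromosome 19 were control-only at 16.6% (117 of 705), and ZNF minus other names was -7.80 points there (interval -12.1 to -2.59).

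Few ZNF start sites lay close to another listed start. Of 127 ZNF promoters, 9 (7.09%) had another listed start within 1 kb, against 6.06% of other promoters, and they formed 8 distinct pairs. The N-Myc class of both starts was the same in 9 of 9, as in 567 of 573 other promoters (99.0%). The closest ZNF pair was ZNF146 and ZNF565, whose starts at positions 36705504 and 36705566 of chromosome 19 (hg19) are 62 bp apart. Both were N-Myc-binding and listed in both libraries. ZNF142 starts 24 bp from BCS1L, a mitochondrial chaperone gene, and both were non-binding and listed in both. A peak within 1 kb of such starts counts for either gene.

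The place of control-only names among neighbouring ZNF genes was then described. Of 219 pairs of ZNF names that adjoin in the control list, 3 were control-only at both names, 30 at 1 of them and 186 at neither. The control list is in genome order, and ZNF names with at most 3 other names between them were taken as neighbours, a rule set after the data were seen. There were 8 groups of at least 10 neighbours, 7 of them on chromosome 19, and they held 201 control-listed ZNF names, of which 19 were control-only (9.45%, interval 5.79 to 14.4%). The 240 other control-listed ZNF names had 10 (4.17%, interval 2.02 to 7.53%). Of the 19, 7 came from the 1 stretch of 16 names from ZNF578 to ZNF813 described below, so the contrast leans on that stretch.

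The largest group, from ZNF628 to ZNF446, held 55 names with 2 control-only, ZNF628 and ZNF784. The group from ZNF175 to ZNF331 held 33 names with 8 control-only (24.2%). Within it, 7 of the 16 names from ZNF578 to ZNF813 were control-only (43.8%, interval 19.8 to 70.1%). Of these, ZNF578, ZNF808, ZNF701 and ZNF83 followed each other and made up all 3 adjoining control-only pairs, and ZNF816, ZNF347 and ZNF813 were each flanked by names listed in both. ZNF665, which lies nearby and has a non-binding start at position 53696619 of chromosome 19 (hg19), was in neither list. The stretch was picked for its calls, so its share is a description only.

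The group from ZNF283 to ZNF180 had 4 control-only names of 17 (23.5%), namely ZNF155, ZNF284, ZNF233 and ZNF229, none next to another. Between ZNF233 and ZNF229 in the list lies ZFP112, a zinc finger gene under another symbol, which was control-only too. The group from ZNF146 to ZNF573 had 3 of 24 and that from ZNF414 to ZNF846 had 1 of 10. By contrast the group from ZNF101 to ZNF254 had 1 of 29, the pseudogene ZNF826P, and the group from ZNF627 to ZNF791 had 0 of 22. The 1 group elsewhere, ZNF786 to ZNF862 on chromosome 7, had 0 of 11.

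**Figure D3:**
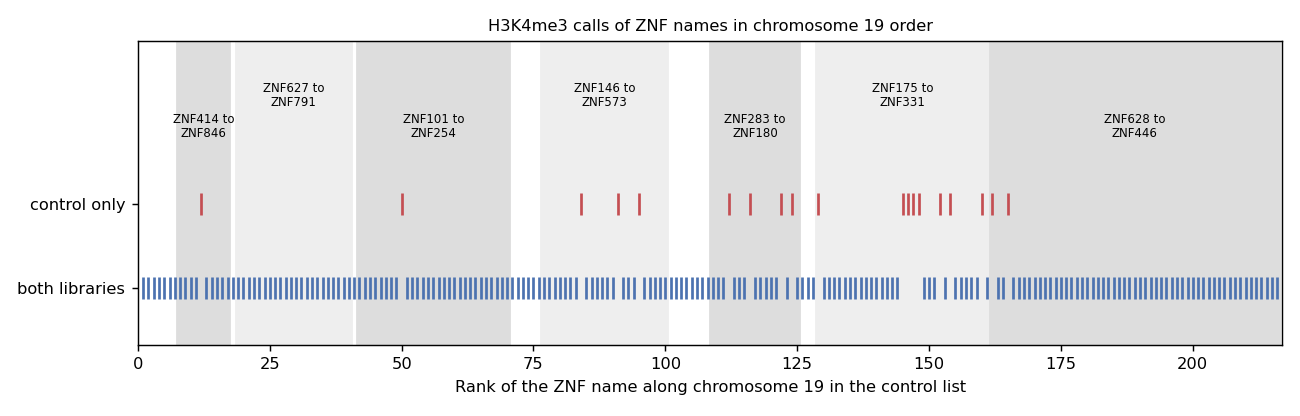
Calls of the 216 control-listed ZNF names on chromosome 19, ranked along the chromosome as in the control list (horizontal axis), with ticks for names listed in both libraries (lower row) or only with control siRNA (upper row) and shading for groups of at least 10 neighbours. The upper row is densest from ZNF578 to ZNF813, with 7 of 16 names, and has 0 ticks over the 22 names from ZNF627 to ZNF791 and 1 over the 29 from ZNF101 to ZNF254.

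Related promoter sequences differed by family in their calls. Pairs of ZNF promoters were called related when at least 200 aligned bases were at least 80% identical, and 66 of the 380 promoters had at least 1 relative, in 14 families. The largest family held 26 promoters, among them those of ZNF91, ZNF93, ZNF43, ZNF85, ZNF100 and ZNF254, with 22 on chromosome 19. All 26 were listed in both libraries. The next held 10 promoters on chromosome 19, of which 6 (ZNF468, ZNF525, ZNF611, ZNF761, ZNF765 and ZNF845) were listed in both and 4 (ZNF701, ZNF808, ZNF813 and ZNF83) only with control siRNA. All 10 lie in the stretch from ZNF578 to ZNF813, which was picked for its calls, so their calls are no separate finding. The third, with ZNF44, ZNF441, ZNF442, ZNF443, ZNF563, ZNF799 and ZNF823, had 7 of 7 in both.

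Calls differed within 3 families. Of 384 related pairs, 353 were both/both, 24 paired a name in both lists with a control-only name, 6 were both control-only, and 1 was ZNF585A with ZNF585B. The closest pair with different calls was ZNF611 and ZNF808, shown above. Control-only names were 6 of 65 control-listed names with a related promoter (9.23%, interval 3.46 to 19%) and 19 of 308 without one (6.17%, interval 3.75 to 9.47%), a difference of 3.06 points (interval -2.85 to 12.8). How the authors' alignment handled reads that match more than 1 related copy is unknown here, and the part of such reads in these calls was not tested.

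**Figure D4:**
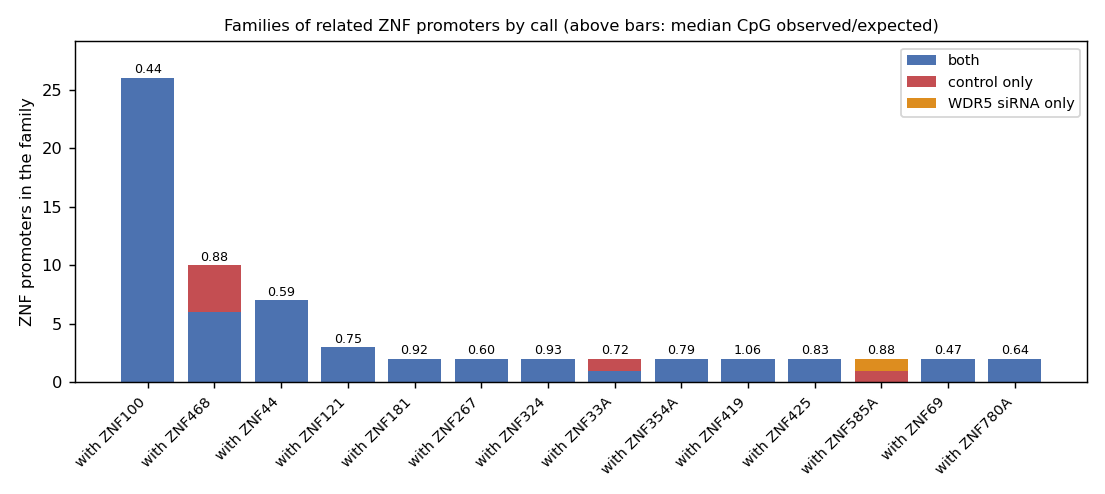
Number of ZNF promoters (vertical axis) in each of 14 families of related promoters, named by a member and coloured by H3K4me3 call, with the median CpG observed/expected ratio above each bar. The family of 26 with ZNF100 was listed in both libraries throughout, the family of 10 with ZNF468 holds 4 control-only promoters, and ZNF585A and ZNF585B have opposite calls.

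ZNF promoters shared words that are rare elsewhere. All 10-letter words were counted on both strands in the 380 ZNF promoters and in those of 15411 other protein-coding genes, and the words were picked after seeing these counts. TCCAATCAGG had the largest gap in share, with 51 ZNF promoters (13.4%) and 0.136% of the others. CTGAGTGACA was in 32 (8.42%) and 0.162%, and a form of it shifted by 1 base was in 37 (9.74%). Both words were present in 26 promoters. TCCAATCAGG lay at a median of -59.0 bases from the start and in the gene's orientation in 65 of 66 matches, and CTGAGTGACA lay at a median of -123 and in the reverse orientation in 32 of 32. In all 26 promoters with both, CTGAGTGACA lay upstream of every copy of TCCAATCAGG. Measured from start to start, the spacing was 36 to 39 bases alone in 9 promoters and 67 to 69 bases alone in 10, ZNF91 among them. The other 7, ZNF93 among them, carried 2 copies of TCCAATCAGG and had both spacings. TCCAATCAGG contains CCAAT.

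All 57 promoters with either word were listed in both libraries, against 348 of all 380 (91.6%). Of the 57, 46 were on chromosome 19. All 26 promoters of the largest related family held a word, as did 5 of 7 in the third. The 57 promoters are thus not independent of each other or of these families. Of the 316 control-listed promoters with neither word, 25 were control-only. No control-only promoter held TCCAATCAGG (0 of 25, upper limit 13.7%). All 25 names with a RefSeq promoter in the group from ZNF101 to ZNF254 held a word, as did 18 of 21 in the group from ZNF627 to ZNF791. Of these 25 and 21 names, 22 and 9 had a related promoter. In the groups from ZNF175 to ZNF331 and ZNF283 to ZNF180, which had 8 and 4 control-only names, 0 of 29 and 0 of 13 held a word. Of these 29 and 13 names, 10 and 0 had a related promoter. Both words were also absent (0 of 49) from the group from ZNF628 to ZNF446, with 2 control-only names of 55, and a word was present in 1 of 8 from ZNF786 to ZNF862, with 0 of 11. A word was in 0 of 22 from ZNF146 to ZNF573 and 0 of 9 from ZNF414 to ZNF846. Of the 50 RefSeq ZNF promoters in no file, 6 held TCCAATCAGG (12%), but whether the authors' annotation held these symbols is unknown. Among members in neither list, 0 of 5 with a RefSeq promoter held it.

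ZNF promoters were mostly rich in CpG, and those with the shared words less so. The CpG observed/expected ratio had a median of 0.802 in ZNF promoters and 0.762 in other protein-coding genes, and a ratio of at least 0.6 was found in 82.4% and 65.4%. The other genes include 3614 in no file, with a median of 0.332. Among promoters listed in both libraries the order was the reverse. There the medians were 0.798 for ZNF and 0.862 for other genes, with 81.3% and 89.1% at or above 0.6. ZNF promoters with either word had a median of 0.528 (range 0.310 to 0.999), against 0.828 in the rest. Control-only ZNF promoters had a median of 0.883, with 25 of 25 at or above 0.6, and ZNF promoters listed in both had 0.798. Among other genes the order was the reverse, at 0.767 for control-only and 0.862 for both. RefSeq ZNF promoters in no file had 0.606.

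**Figure D5:**
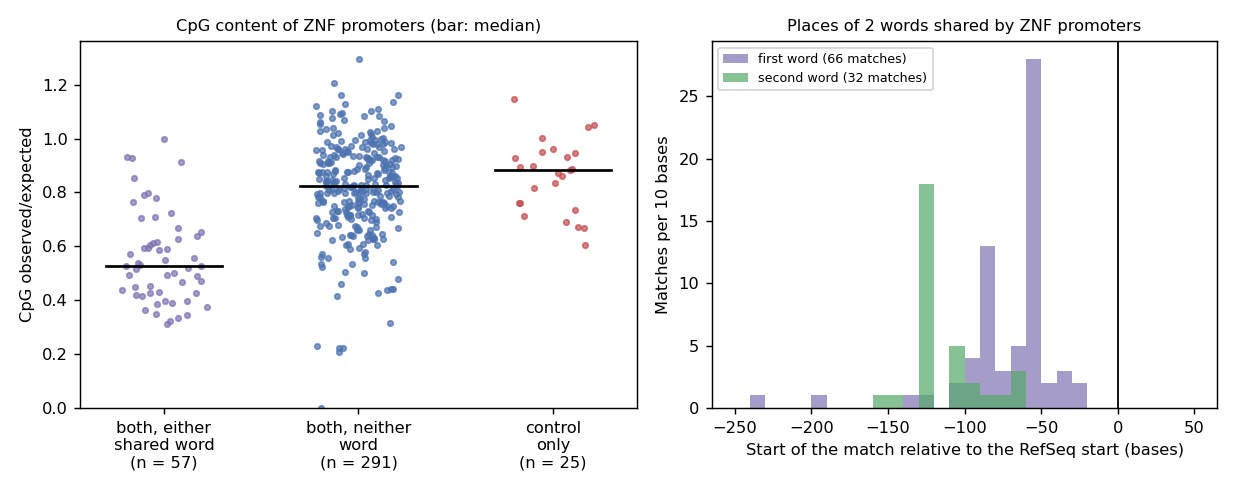
Left, CpG observed/expected ratio of RefSeq promoters of ZNF names listed in both libraries, with or without the shared words, and of control-only names, with bars at the medians. Right, matches to the first word (TCCAATCAGG, 66) and the second (CTGAGTGACA, 32) per 10 bases by distance from the RefSeq start, with medians at -59.0 and -123 bases.

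Known promoter motifs were searched on both strands. CACGTG was in 19 ZNF promoters (5.0%), against 8.99% of other protein-coding promoters, and 19 of 19 were listed in both libraries (interval 82.4 to 100%), against 348 of all 380 (91.6%). Among N-Myc-binding ZNF promoters it was in 5 of 45 (11.1%, interval 3.71 to 24.1%), those of ZNF202, ZNF296, ZNF324, ZNF565 and ZNF593, against 15.1% of other binding promoters. Among non-binding ones it was in 1 of 65 (1.54%, interval 0.0389 to 8.28%), that of ZNF318, against 6.29%. The looser CANNTG, which includes CACGTG, was in 56.1% of ZNF promoters and 64.7% of the others. CCGGAA was in 51.6% against 22.1%, CCAAT in 48.7% against 36%, and TATAAA in 3.16% against 9.80%. These sets differ in their calls, since the other promoters include 3614 in no file. Among promoters listed in both libraries, CANNTG was in 57.8% of ZNF and 58.1% of other promoters, and TATAAA in 3.45% and 4.44%. Little of the CANNTG and TATAAA gaps thus remained there. CACGTG was in 5.46% and 10.9% of these promoters and CCGGAA in 51.1% and 31.3%, and CCAAT stayed more frequent in ZNF promoters. By chromosome, CCGGAA was in 56.0% of ZNF promoters on chromosome 19 and 47.1% elsewhere. Among control-only ZNF promoters CCGGAA was in 14 of 25 (56.0%), and among other control-only promoters in 16.0%.

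Genes of the KAP1 pathway, through which KRAB zinc finger proteins act, were looked up in the same lists. Of 25 genes, 23 were listed in both libraries and 1 of 24 control-listed genes was control-only, against 71.4% in both and 13.5% control-only over all names. Listed in both were TRIM28, which encodes KAP1 itself, ATF7IP, the HP1 genes CBX1 and CBX3, HDAC1, HDAC2 and DNMT1. SETDB1, the H3K9 methyltransferase of the pathway, was listed only with control siRNA, and CBX5, which encodes HP1 alpha, was in neither list although it has an N-Myc-binding promoter row. Of the list 10 were N-Myc-binding, TRIM28 included, and 5 non-binding, against 33.9% binding over all promoters.

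Zinc finger genes under other symbols were counted in the same way. Of control-listed names, 1 of 15 ZSCAN (ZSCAN20), 0 of 7 ZKSCAN (upper limit 41.0%) and 1 of 17 ZFP names (ZFP112) were control-only. Of ZBTB names 4 of 37 were, at 10.8% (ZBTB16, ZBTB4, ZBTB7C and ZBTB8B). PRDM names had 2 of 9 (PRDM16 and PRDM9) and KLF names 2 of 14 (KLF1 and KLF4). The exact interval over genes of each of these 6 shares includes both the 6.58% of ZNF names and the 13.5% of all names. As a check on the cells, the sympathoadrenal lineage genes GATA3, HAND2 and ISL1 had calls with either siRNA, and TH and DBH had a call with control siRNA alone. Of 6 markers of other cell types 5 were in neither list and COL1A1 was control-only.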

How the data were processed

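BWA 0.7.12, bedtools and the build hg19 are named, with no role, per the submitters' processing notes. For the peak caller, its threshold and the rule for N-Myc binding, nothing is given in the sources used here. The deposited files hold gene names and start sites without measured values, so each call has an unknown depth. The H3K4me3 libraries were assigned by title, and the IgG and input libraries entered no value here. Distinct names were joined by name. Shares carry exact 95% intervals and differences Newcombe intervals, both over genes. With 1 library per siRNA no test was made. Names were matched to RefSeq (GRCh38.p14), 8 of 451 by synonym, for chromosome, biotype and promoter. Promoters were aligned pairwise with Biopython 1.88 (match 1, mismatch -1). The protein features planned were not computed, for want of protein sequences. Named genes follow a list of well-known ZNF genes, all names called in 1 library, unlisted promoters and the ends of each table. Words, neighbour groups and families, and names given with them, were chosen after seeing the values. The members and lists were chosen with earlier results of these data known. Not all genes of the lists are reported here. Scripts were tested on simulated data. Versions were scipy 1.17.1 for intervals, pandas 2.3.3 for tables, matplotlib 3.10.9 for plots and numpy 2.4.6, under Python 3.11.15.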

Additional observations from a re-analysis of the deposited data

How the results depend on the processing

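No paired analysis was possible because each group holds 1 library, and no replicate could be left out. Of 29 alternatives, 23 kept the direction and stayed within the interval of the value reported. The control-only share of ZNF names, 6.58%, ranged from 5.18 to 6.87% under deposited rows, digits-only names, all names starting with ZNF, names listed once and omission of ZNF578 to ZNF813 (added after seeing the data), and was 3.39% among names with a promoter row. The WDR5-siRNA-only share was 0% (0 of 388, upper limit 0.946%) for digits-only names, since ZNF585A and ZNF75D carry letters. On chromosome 19 the N-Myc-binding difference was 0.556 points among control-listed promoters, -8.71 without starts closer than 2 kb and -5.68 for digits-only names, and every interval of these chromosome differences spans 0. The control-only difference was 0.0452 points without starts closer than 2 kb, 4.35 with RefSeq chromosomes and 1.56 when ZNF578 to ZNF813 were left out of these. Neighbour groups with at most 1 or 5 names between gave control-only shares of 8.92 and 9.26%. With any listed start, TCCAATCAGG was in 52 and CACGTG in 23 of 380 promoters.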
